A study of Mus musculus with 8 samples.

Results

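The 10 genes described here are nuclear genes whose products copy, transcribe or stabilise the mitochondrial genome, or switch on the nuclear genes that do so. They are Tfam, Tfb1m, Tfb2m, Polrmt, Polg, Twnk, Lrpprc, Slirp, Ppargc1a and Nrf1. They were picked by symbol, and all 10 were found among the 55414 genes of the expression table, each as a single row. Expression was measured by RNA-seq in B16F10 cells, a mouse melanoma line, in 4 groups of 2 libraries. WT was the parental line, and CypD KO was the line in which Ppif, the gene of the mitochondrial matrix protein cyclophilin D (CypD), had been disrupted with CRISPR/Cas9 and cells selected in puromycin. Both were kept at 21% oxygen for 24 h. Control carried an empty pcDNA vector and CypD OE carried pcDNA with the CypD coding sequence, both as stable lines selected in G418, and both were kept at 1% oxygen for 24 h. Oxygen, vector and selection therefore cannot be told apart between WT and Control. Between CypD KO and WT, loss of CypD cannot be told apart from the editing and selection in puromycin. CypD OE against WT, CypD KO against Control and CypD KO against CypD OE differ in both oxygen and line. Whether a line was a single clone, and whether the 2 libraries of a group came from separate cultures, is not stated in the sources used here, so the p-values measure the spread between these libraries, which may be technical.

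Mitochondrial DNA is transcribed by a single-subunit RNA polymerase, POLRMT, which needs the DNA-bending protein TFAM and the factor TFB2M to start. TFAM also packs the genome into nucleoids, and the replicative helicase TWINKLE (Twnk) and the polymerase POLG copy it. LRPPRC and SLIRP bind each other and keep mitochondrial mRNAs stable, whereas PGC-1alpha (Ppargc1a) and NRF1 act in the nucleus. In melanocytes and melanoma cells, PGC-1alpha is known as a target of the lineage transcription factor MITF.

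The targeted gene was checked first. Ppif measured 50.7 and 50.0 TPM (transcripts scaled to a fixed sum, a measure per transcript length) in WT, against 10.4 and 12.1 TPM in CypD KO. It measured 44.6 and 42.3 TPM in Control, against 50.3 and 49.3 TPM in the CypD OE-labelled libraries. The CypD KO difference passed the test (log2 difference -2.07, limma adjusted p = 3.81e-06). The difference of the CypD OE-labelled libraries from Control did not (0.19, limma adjusted p = 0.0794), so they are called CypD OE-labelled wherever a direction rests on them. All 7 melanocyte markers were expressed in every library. Their summed level was 15665 to 15755 TPM in WT, 12433 to 12587 TPM in CypD KO, 20446 to 20984 TPM in Control and 13586 to 13758 TPM in the CypD OE-labelled libraries. In CypD KO, Pmel, Dct, Tyrp1, Mlana and Sox10 were below WT in both libraries, and Mitf overlapped. Tyr went the other way, with 37.44 and 41.25 TPM in WT against 167 and 147 TPM in CypD KO. Keratinocyte markers summed to at most 0.03 TPM and endothelial markers to at most 1.2 TPM. The fibroblast list summed to 34.2 to 37.2 TPM in CypD KO against 9.23 to 21.0 TPM elsewhere, mainly through Postn. Col1a2, the other fibroblast marker at 1 TPM or more in every library, went the other way, with 9.03 and 6.87 TPM in WT against 1.09 and 2.17 TPM in CypD KO. The leukocyte list summed to 23.7 to 25.1 TPM in CypD KO against 1.13 to 4.90 TPM elsewhere, mainly through Cd68, while Ptprc, which defines leukocytes, was at 0.02 TPM or less everywhere. The part of these markers in the results was not tested. Each library held approximately 25800000 to 29800000 fragments on genes, as estimated from the steps between low TPM values. In bulk RNA, fewer cells of a type and less RNA per cell cannot be told apart.

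Tests compared log2(TPM + 1) between groups with limma over 13526 genes, and a gene was called where the Benjamini-Hochberg adjusted p was under 0.05. All 10 regulators passed the filter of at least 1 TPM in at least 2 libraries, and they were at or above 9.75 TPM in every library. By level, Slirp and Tfam were the most abundant, at 74.2 to 117 TPM and 80.8 to 106 TPM, and Polrmt, Tfb1m and Twnk lay between 10.3 and 21.7 TPM in every library. These 3 were the least abundant except in the CypD OE-labelled libraries, where Ppargc1a, at 9.76 and 9.75 TPM, was below them. Ppargc1a had the widest range of group means, at 2.27 on the log2(TPM + 1) scale, against 0.18 to 0.74 for the other members. Over the 6 pairwise comparisons of the 4 groups, which share libraries, Ppargc1a was called in 5, Lrpprc in 4, Polg and Nrf1 in 3, and Tfb1m, Tfb2m and Slirp in 1. Tfam, Polrmt and Twnk were called in none of the 6. Of all genes tested, 27.7% were called in CypD OE against WT, 44.0% in CypD KO against Control and 48.9% in CypD KO against CypD OE. How often all genes were called over the 6 comparisons was not counted, so these numbers describe the members only.

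**Figure D1:**
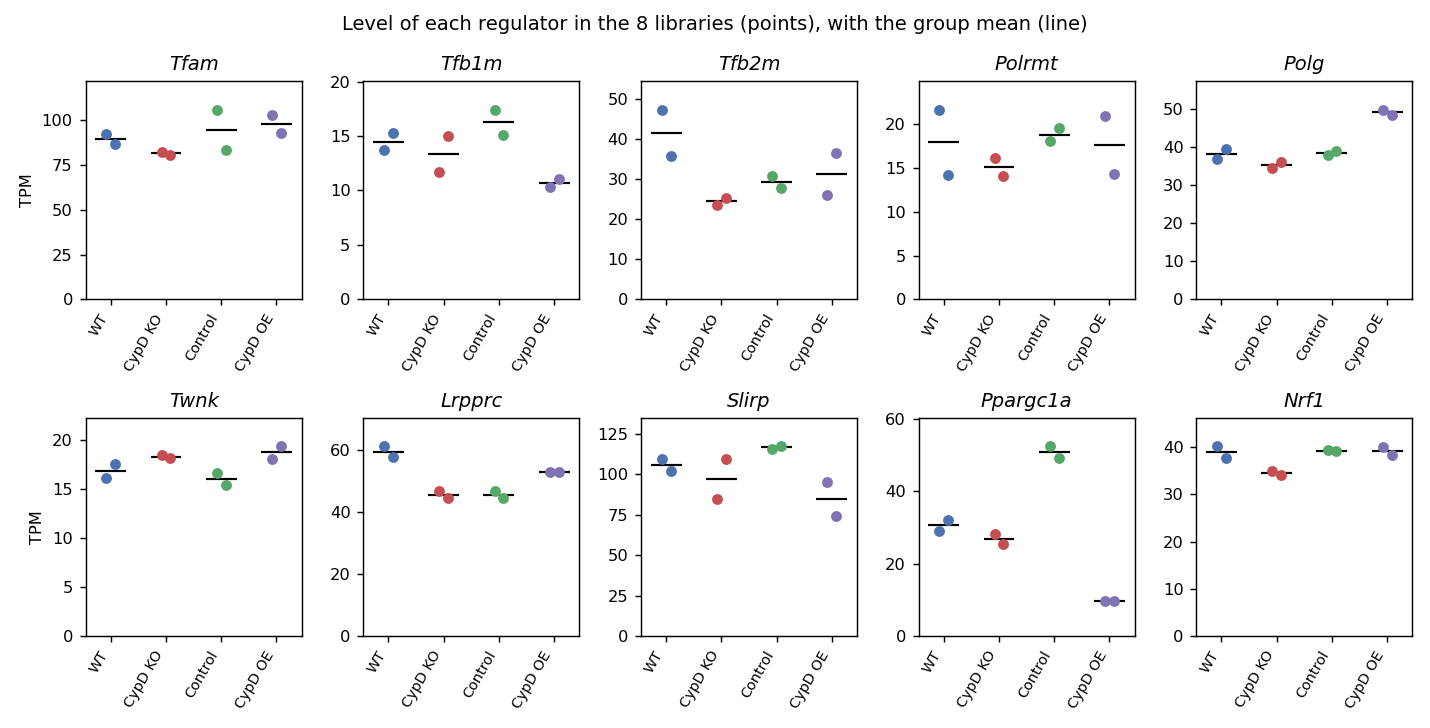
Level of each of the 10 regulators in TPM (vertical axis, from 0) in the 4 groups (horizontal axis), with 1 point per library and a line at the mean of the 2 libraries. Ppargc1a lies at 49.0 to 52.4 TPM in Control and at 9.75 to 9.76 TPM in the CypD OE-labelled libraries, and the other members lie closer together.

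The promoters of 5 members are shown. Ppargc1a, Tfb2m, Polg and Slirp were each called in at least 1 comparison and hold a match to a motif below. Polrmt, called in none, holds matches to both NRF1 and GABP, nuclear factors known for driving these genes. Lrpprc, Nrf1 and Tfb1m were also called, but their windows held none of the motifs searched and are not shown. Each stretch runs from 250 bases before to 29 bases after the RefSeq start site, which is counted as base 0, on the strand of the gene. Sequences come from RefSeq (GRCm38.p6), and their places on GRCm39, the build of the authors' alignment, were found by an exact match that was unique on its chromosome. Capitals mark matches on either strand to the NRF1 motif GCGCANGCG, the GABP motif CCGGAAG, the MITF E-box CATGTG, the E-box CACGTG or the cAMP response element TGACGTCA. The stretches lie at chr5:51725038-51725317 (Ppargc1a, minus strand), chr1:179373812-179374091 (Tfb2m, minus strand), chr10:79582386-79582665 (Polrmt, minus strand), chr7:79115992-79116271 (Polg, minus strand) and chr12:87490416-87490695 (Slirp, plus strand).
Ppargc1a promoter: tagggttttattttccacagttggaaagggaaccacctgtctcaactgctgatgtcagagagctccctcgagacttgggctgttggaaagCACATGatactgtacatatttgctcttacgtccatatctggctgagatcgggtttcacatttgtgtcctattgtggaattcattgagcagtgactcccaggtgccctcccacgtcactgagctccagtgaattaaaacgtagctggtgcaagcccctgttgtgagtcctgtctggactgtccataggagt
Tfb2m promoter: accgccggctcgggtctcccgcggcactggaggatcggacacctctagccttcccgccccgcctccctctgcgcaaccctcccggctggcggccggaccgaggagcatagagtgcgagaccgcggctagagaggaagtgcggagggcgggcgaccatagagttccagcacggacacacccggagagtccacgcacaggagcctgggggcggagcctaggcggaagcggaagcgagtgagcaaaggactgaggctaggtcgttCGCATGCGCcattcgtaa
Polrmt promoter: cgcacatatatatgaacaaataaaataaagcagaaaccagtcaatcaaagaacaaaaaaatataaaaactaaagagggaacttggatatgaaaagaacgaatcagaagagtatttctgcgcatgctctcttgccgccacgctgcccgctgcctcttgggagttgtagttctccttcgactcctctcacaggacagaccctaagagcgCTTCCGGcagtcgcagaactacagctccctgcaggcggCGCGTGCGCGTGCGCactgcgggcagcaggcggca
Polg promoter: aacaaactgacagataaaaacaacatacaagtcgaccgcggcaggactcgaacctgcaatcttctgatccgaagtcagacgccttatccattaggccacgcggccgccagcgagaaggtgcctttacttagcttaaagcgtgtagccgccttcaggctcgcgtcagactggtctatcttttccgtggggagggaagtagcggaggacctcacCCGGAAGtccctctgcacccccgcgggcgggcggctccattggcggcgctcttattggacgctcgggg
Slirp promoter: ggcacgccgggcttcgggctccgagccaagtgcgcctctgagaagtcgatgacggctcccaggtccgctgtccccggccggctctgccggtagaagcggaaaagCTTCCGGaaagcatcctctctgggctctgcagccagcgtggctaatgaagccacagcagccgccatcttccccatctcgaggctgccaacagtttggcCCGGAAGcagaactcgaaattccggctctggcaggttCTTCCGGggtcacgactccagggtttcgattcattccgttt

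The Ppargc1a window held 1 MITF E-box, as its reverse complement from base -160 to base -155, and no NRF1, GABP or cAMP response element match. It also held the HIF core ACGTG at bases -51 to -47, which is not capitalised and is part of CACGTG where that motif occurs. Tfb2m held 1 NRF1 match at bases 12 to 20. Polrmt held 2 overlapping NRF1 matches, at bases -5 to 3 and 1 to 9, and 1 GABP match at bases -43 to -37. Polg held 1 GABP match at bases -38 to -32, and Slirp held 3, starting at bases -146, -48 and -11. Over the 12 windows of all 10 members, which run slightly past the stretches shown, GABP matches were present in 5 members against 8.86% of 32851 promoter windows of the same length. NRF1 matches were present in 2 members against 6.25% of windows, MITF E-boxes in 3 against 14.2%, and the HIF core in 2 against 19.6%. CACGTG (7.15% of windows) and TGACGTCA (1.79%) were in 0 members. No motif searched was found in the windows of Tfb1m, Lrpprc and Nrf1. A match describes letters in the window and was not tested as a binding site.

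CypD KO was compared with WT at 21% oxygen. Of the 10 regulators, 3 were lower in CypD KO (Tfb2m, Lrpprc and Nrf1) and 0 were higher, where 18.4% of all genes tested were lower and 30.1% were higher. The median difference of the 10 was -0.15 on the log2 scale, and that of all genes tested was 0.09. Without WT replicate 1 or without CypD KO replicate 1, 1 member was lower. Of the 7 genes not called, 6 had a fitted difference below 0, and Twnk had one above 0.

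Among the transcription factors, TFB2M, which opens the promoter for POLRMT, had the only called difference. Tfb2m (GRCm39 chr1:179355610-179374548, minus strand) measured 47.3 and 35.8 TPM in WT, against 23.6 and 25.3 TPM in CypD KO. Both CypD KO libraries were below both WT libraries, although the WT libraries were themselves far apart. The log2 difference was -0.73 (SE 0.18, limma adjusted p = 0.0140), and without WT replicate 1 it was -0.53 (limma adjusted p = 0.0736) and without CypD KO replicate 1 it was -0.68 (limma adjusted p = 0.0666). Tfb1m, a relative that acts as an rRNA methyltransferase of the small mitochondrial ribosomal subunit, measured 13.7 and 15.3 TPM in WT, against 11.7 and 15.0 TPM in CypD KO, with overlapping libraries. The ratio of Tfb2m to Tfb1m in TPM was 3.46 and 2.34 in WT and 2.03 and 1.69 in CypD KO. Tfam (chr10:71061287-71074110, minus strand) measured 92.1 and 87.0 TPM in WT, against 82.5 and 80.8 TPM in CypD KO, a log2 difference of -0.13 with a 95% interval of -0.39 to 0.13. Polrmt (chr10:79571957-79582420, minus strand) measured 21.7 and 14.3 TPM in WT, against 16.2 and 14.2 TPM in CypD KO, and the interval of its log2 difference ran from -0.74 to 0.33. The 2 replicates of WT differed more in Polrmt than the 2 groups did.

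Of the replication proteins, Polg (chr7:79095974-79116110, minus strand) measured 36.9 and 39.4 TPM in WT, against 34.5 and 35.9 TPM in CypD KO. Its log2 difference of -0.11 missed the threshold (limma adjusted p = 0.128). Twnk (chr19:44994102-45001204, plus strand) measured 16.1 and 17.6 TPM in WT, against 18.5 and 18.2 TPM in CypD KO, a log2 difference of 0.12 (limma adjusted p = 0.254). Neither replication gene was called, and their 2 differences had opposite signs.

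LRPPRC, the leucine-rich pentatricopeptide repeat protein of the mRNA-stabilising complex, gave the difference with the smallest SE of the 10 members. Lrpprc (chr17:85012670-85098279, minus strand) measured 61.1 and 57.5 TPM in WT, against 46.6 and 44.4 TPM in CypD KO. The libraries did not overlap, and the log2 difference was -0.38 (SE 0.05, limma adjusted p = 0.00112). Slirp (chr12:87490572-87506290, plus strand), its partner, measured 109 and 102 TPM in WT, against 84.7 and 109 TPM in CypD KO. Of the CypD KO libraries, 1 lay below WT and 1 was level with the higher WT library, and the log2 difference of -0.14 was not called (limma adjusted p = 0.478). The ratio of Slirp to Lrpprc was 1.79 and 1.78 in WT and 1.82 and 2.46 in CypD KO.

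Of the nuclear regulators, NRF1, a transcription factor of respiratory chain and mitochondrial transcription genes, was slightly lower. Nrf1 (chr6:30047892-30153462, plus strand) measured 40.2 and 37.7 TPM in WT, against 34.9 and 34.2 TPM in CypD KO, with no overlap (log2 difference -0.17, SE 0.05, limma adjusted p = 0.0344). This call was lost in 7 of 16 alternative settings, including without WT replicate 1 and without either CypD KO library, with a limma adjusted p of up to 0.160. Ppargc1a (chr5:51611592-51725068, minus strand) measured 29.1 and 32.0 TPM in WT, against 28.2 and 25.3 TPM in CypD KO. Its log2 difference of -0.19 (95% interval -0.37 to 0.00) missed the threshold (limma adjusted p = 0.0901), and with median-of-ratios scaling it was -0.28 (limma adjusted p = 0.0236). The same scaling, which lowers the share of higher genes among all calls from 62.1% to 50.5%, also brought Polg past the threshold (limma adjusted p = 0.0167), so that 5 members were lower. Of all 13526 genes tested, 3285 were lower with this scaling, in place of 2486.

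**Figure D2:**
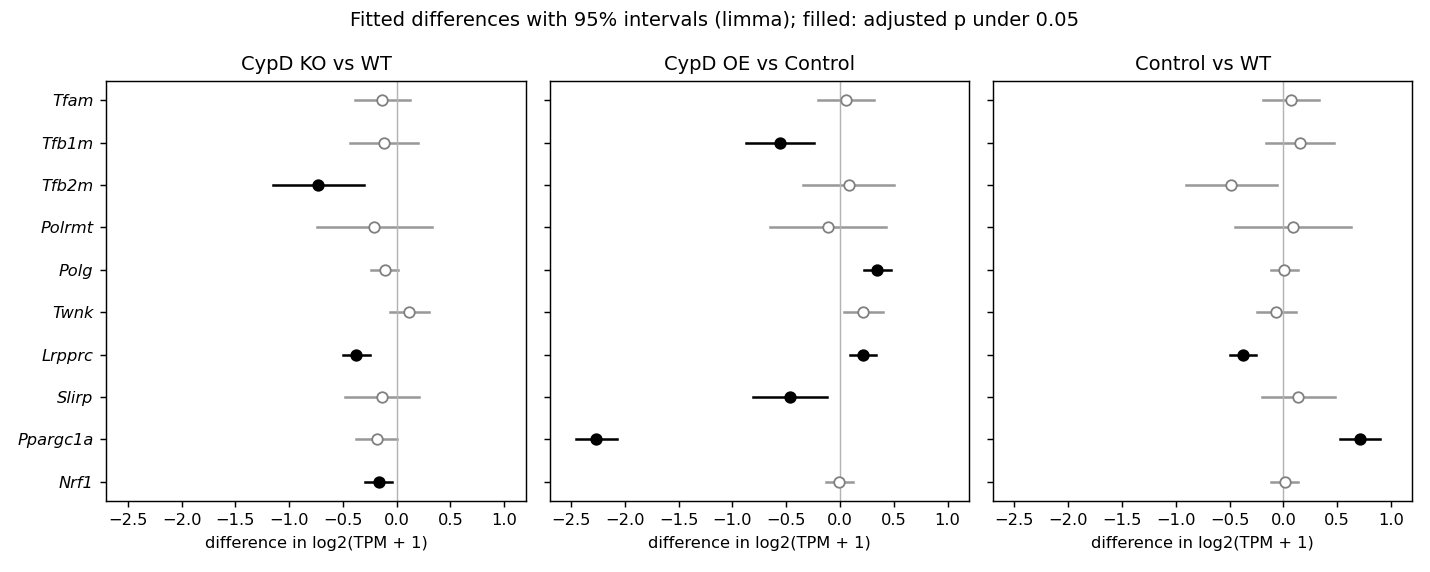
Fitted difference in log2(TPM + 1) for each regulator (rows) in 3 comparisons (panels), with 95% confidence intervals from limma and filled points where the adjusted p was under 0.05. In CypD KO against WT the called genes are Tfb2m, Lrpprc and Nrf1, and Ppargc1a, at -2.26, lies far to the left of the others in the CypD OE-labelled libraries against Control.

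The CypD OE-labelled libraries were compared with Control at 1% oxygen. Of the 10 regulators, 3 were lower (Ppargc1a, Tfb1m and Slirp) and 2 were higher (Polg and Lrpprc), where 18.3% of all genes tested were lower and 19.0% were higher. The median difference of the 10 was 0.02 on the log2 scale, and that of all genes tested was 0.002. Transcripts of the 13 mitochondrially encoded mRNAs took up 127545 to 134764 TPM in the CypD OE-labelled libraries and 94118 to 98925 TPM in Control, which lowers the TPM of nuclear genes in the former. Much of this sum was mt-Atp8, with means of 57077 TPM in the CypD OE-labelled libraries and 39655 TPM in Control, against 4072 and 3284 TPM for mt-Atp6. How far transcript length shapes the TPM of mt-Atp8, and with it this sum, was not tested. With TPM rescaled to nuclear protein-coding genes, the share of higher genes among all calls was 64.1% in place of 50.9%, and the counts for the regulators were 3 higher and 2 lower, with Twnk gained and Slirp lost. Of all 13526 genes tested, 3506 were higher and 1963 lower after this rescaling, in place of 2576 and 2481. Without Control replicate 1 or CypD OE replicate 2, 1 member was lower, and without Control replicate 2 or either CypD OE library, 1 was higher.

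Ppargc1a, the coactivator that heads the pathway, changed most. It measured 52.4 and 49.0 TPM in Control, against 9.76 and 9.75 TPM in the CypD OE-labelled libraries, a mean 5.20-fold lower. The libraries were far apart, and the log2 difference was -2.26 (SE 0.08, 95% interval -2.45 to -2.08, limma adjusted p = 4.67e-06). These levels correspond to approximately 3360 to 3410 fragments per Control library and 730 to 740 per CypD OE-labelled library, so counting error is small beside the difference. Over all 16 alternative settings the log2 difference stayed between -2.37 and -2.21. Of the 7 melanocyte markers, Mitf, Pmel, Dct and Tyrp1 were also below Control in both CypD OE-labelled libraries, Mlana and Sox10 were above it, and Tyr overlapped. Their part in the Ppargc1a difference was not tested. Nrf1 measured 39.3 and 39.2 TPM in Control, against 40.0 and 38.3 TPM in the CypD OE-labelled libraries. Its log2 difference of -0.01 had a 95% interval of -0.13 to 0.12, so any difference was much smaller than that of Ppargc1a.

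Tfb1m, the rRNA methyltransferase gene (chr17:3563847-3608190, minus strand), measured 17.4 and 15.1 TPM in Control, against 10.3 and 11.1 TPM in the CypD OE-labelled libraries. Its log2 difference was -0.56 (SE 0.13, limma adjusted p = 0.0168), with adjusted p of 0.0872 without Control replicate 1, 0.0801 without CypD OE replicate 1 and 0.0505 without CypD OE replicate 2. Tfb2m measured 30.7 and 27.7 TPM in Control, against 26.1 and 36.5 TPM in the CypD OE-labelled libraries, which lay on either side of Control. Tfam measured 106 and 83.4 TPM in Control, against 103 and 92.8 TPM in the CypD OE-labelled libraries. Polrmt measured 18.1 and 19.6 TPM in Control, against 21.0 and 14.4 TPM in the CypD OE-labelled libraries. The groups overlapped for these 3 genes, with limma adjusted p-values of 0.767 for Tfb2m, 0.743 for Tfam and 0.744 for Polrmt.

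Polg, the catalytic subunit of the replicative polymerase, measured 37.8 and 38.8 TPM in Control, against 49.7 and 48.2 TPM in the CypD OE-labelled libraries. The libraries did not overlap, and the log2 difference was 0.35 (SE 0.05, limma adjusted p = 0.00273), called in all 16 alternative settings. The ratio of Polg to Polg2, the gene of its accessory subunit, was at most 10.1 in Control and at least 11.1 in the CypD OE-labelled libraries. Twnk measured 16.6 and 15.4 TPM in Control, against 18.1 and 19.4 TPM in the CypD OE-labelled libraries. Its log2 difference of 0.22 missed the threshold (limma adjusted p = 0.0652), and over nuclear protein-coding genes it passed (0.30, limma adjusted p = 0.0237).

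The partners LRPPRC and SLIRP were called in opposite directions. Lrpprc measured 46.5 and 44.5 TPM in Control, against 52.9 and 52.8 TPM in the CypD OE-labelled libraries (log2 difference 0.21, SE 0.05, limma adjusted p = 0.0177). Slirp measured 116 and 117 TPM in Control, against 95.2 and 74.2 TPM in the CypD OE-labelled libraries (log2 difference -0.47, SE 0.14, limma adjusted p = 0.0414). The ratio of Slirp to Lrpprc was 2.49 and 2.64 in Control and 1.80 and 1.41 in the CypD OE-labelled libraries. This separation follows from the levels of the 2 genes given above and adds nothing to their calls. The Lrpprc call was lost without Control replicate 2 (limma adjusted p = 0.0888), without CypD OE replicate 1 (0.0732) and without CypD OE replicate 2 (0.0696). The Slirp call was lost in 9 of 16 alternative settings, and without CypD OE replicate 2 the log2 difference was -0.29 (limma adjusted p = 0.186).

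Several members share ground with a gene on the opposite strand. The overlaps below run over whole genes, introns included, and the overlap of exons was not measured. The strand setting of the counting is not given in the sources used here. Whether reads of such pairs were told apart where exons overlap is therefore not known. Slirp overlaps Snw1 (107 to 138 TPM) over 10446 bases and Alkbh1 over 216 bases. Tfb1m overlaps Tiam2 (1.86 to 3.23 TPM) over 17773 bases, and Polg overlaps Fanci (15.2 to 20.5 TPM) over 4054 bases. Twnk overlaps Mrpl43 (32.6 to 45.0 TPM) over 1570 bases, and Tfb2m overlaps Cnst (15.8 to 26.0 TPM) over 666 bases. Tfam and Polrmt overlap no other annotated gene, and the annotated genes that overlap Ppargc1a, Nrf1 and Lrpprc were at most at 0.87 TPM where the table lists them.

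Control at 1% oxygen was also compared with WT at 21% oxygen. Ppargc1a was higher in Control and Lrpprc was lower, 1 member in each direction, where 12.1% of all genes tested were higher and 12.1% were lower. The mean of Ppargc1a was 50.7 TPM in Control (SD 2.35, n = 2) and 30.5 TPM in WT (SD 2.10, n = 2), a ratio of 1.66 (log2 difference 0.71, limma adjusted p = 0.00134). Lrpprc had a mean of 45.5 TPM in Control and 59.3 TPM in WT (log2 difference -0.37, limma adjusted p = 0.00321). Tfb2m was at 29.2 TPM in Control and 41.5 TPM in WT, and its log2 difference of -0.48 was not called (limma adjusted p = 0.0955). Nrf1, Polg, Tfam and Twnk had log2 differences between -0.07 and 0.07, and none of them was called. Nor were Tfb1m (0.15, limma adjusted p = 0.446), Slirp (0.14, 0.526) and Polrmt (0.09, 0.810). This comparison shares the WT libraries with that of CypD KO and the Control libraries with that of CypD OE, so its values are not independent of theirs.

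The order of the 4 groups differed between members. For Ppargc1a, Control was highest, followed by WT, CypD KO and the CypD OE-labelled libraries. Control was above WT, and CypD KO was above the CypD OE-labelled libraries by 1.36 on the log2 scale (limma adjusted p = 2.31e-05), whereas WT and CypD KO did not pass the threshold. The CypD OE-labelled libraries were also below WT (-1.55, limma adjusted p = 9.57e-05), and CypD KO was below Control (-0.90, limma adjusted p = 1.61e-04). For Lrpprc, WT was highest, and the neighbouring CypD OE-labelled libraries did not differ from it past the threshold (limma adjusted p = 0.0570). These were above Control, while Control and CypD KO had nearly the same mean, with a 95% interval of -0.12 to 0.12 for the log2 difference. Polg was higher in the CypD OE-labelled libraries than in WT (0.35, limma adjusted p = 0.00373), Control and CypD KO (CypD KO minus CypD OE-labelled -0.46, limma adjusted p = 4.73e-04), and the latter 3 groups were not called against each other. Nrf1 was lowest in CypD KO, below Control (-0.18, limma adjusted p = 0.0288) and the CypD OE-labelled libraries (-0.18, limma adjusted p = 0.0293) as well as WT, and the other 3 groups had log2 differences of 0.01 or -0.01 from each other. Both of these further Nrf1 calls were lost without any 1 of the 4 libraries compared (limma adjusted p of up to 0.119 against Control and 0.137 against the CypD OE-labelled libraries). The Lrpprc difference between CypD KO and the CypD OE-labelled libraries (-0.21, limma adjusted p = 0.0132) was lost without CypD KO replicate 2 or either CypD OE library. Members called in either direction numbered 2 of 10 in CypD OE against WT (27.7% of all genes), 2 in CypD KO against Control (44.0%) and 4 in CypD KO against CypD OE (48.9%). Of the members not called in CypD OE against WT, Tfb1m and Tfb2m were at -0.40, Slirp at -0.33, Tfam at 0.12, Twnk at 0.15, Polrmt at -0.02 and Nrf1 at 0.01 in log2 difference. Of those not called in CypD KO against Control, Polrmt was at -0.30, Slirp at -0.28, Tfb1m at -0.27, Tfb2m at -0.24, Tfam at -0.20, Polg at -0.12 and Twnk at 0.18. Of those not called in CypD KO against CypD OE, Tfb2m was at -0.32, Tfam at -0.26, Polrmt at -0.19, Twnk at -0.03, Slirp at 0.19 and Tfb1m at 0.28.

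PGC-1alpha belongs to a family of 3 coactivators with PGC-1beta (Ppargc1b) and PRC (Pprc1), and the other 2 genes had a different order of group means. Ppargc1b was at 5.68 and 5.84 TPM in WT, 3.31 and 4.02 TPM in CypD KO, 6.27 and 6.46 TPM in Control, and 6.26 and 6.13 TPM in the CypD OE-labelled libraries. It was lower in CypD KO than in WT (log2 difference -0.54, limma adjusted p = 0.00652), and the CypD OE-labelled libraries lay just below Control (-0.03, limma adjusted p = 0.846). Pprc1 was at 51.5 and 49.7 TPM in WT, 37.8 and 35.3 TPM in CypD KO, 36.8 and 42.2 TPM in Control, and 54.5 and 59.9 TPM in the CypD OE-labelled libraries. It was higher in the CypD OE-labelled libraries than in Control (0.52, limma adjusted p = 0.00272), opposite to Ppargc1a. Ppargc1a made up 54.8% and 50.2% of the summed TPM of the family in Control and 13.8% and 12.9% in the CypD OE-labelled libraries, and 33.7% to 40.7% in the libraries at 21% oxygen.

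Of the transcription factors around the coactivators, Mitf, the melanocyte lineage factor, measured 379 and 371 TPM in Control, against 203 and 190 TPM in the CypD OE-labelled libraries (log2 difference -0.93, limma adjusted p = 1.86e-05). It measured 277 and 281 TPM in WT, against 280 and 265 TPM in CypD KO, with a log2 difference of -0.03 (limma adjusted p = 0.593). The order of its 4 group means was the same as that of Ppargc1a. Myc, the growth-associated transcription factor, was lower in CypD KO than in WT (-1.08, limma adjusted p = 8.46e-06) and higher in the CypD OE-labelled libraries than in Control (0.75, limma adjusted p = 6.38e-05).

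**Figure D3:**
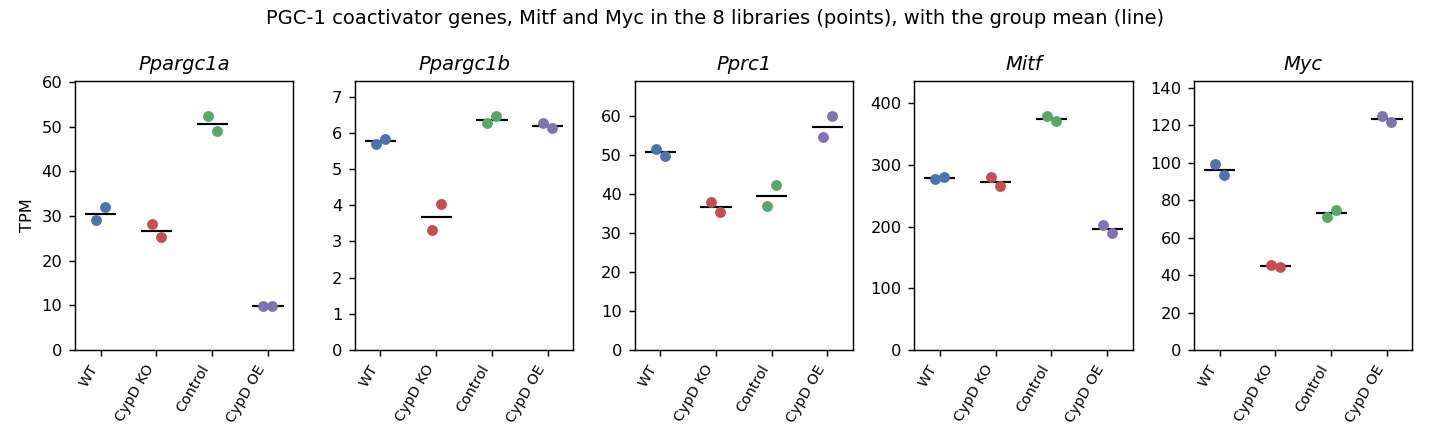
Level in TPM (vertical axis, from 0) of the 3 PGC-1 family genes, Mitf and Myc in the 4 groups, with 1 point per library and a line at the mean. Ppargc1a and Mitf are highest in Control and lowest in the CypD OE-labelled libraries, whereas Pprc1 and Myc are highest in the latter.

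The genes whose levels followed Ppargc1a most closely were ranked by the root mean square difference between log2(TPM + 1) profiles, each centred over the 8 libraries. The nearest was Jph2, which encodes junctophilin 2, at 0.10, followed by Eogt, an O-GlcNAc transferase of the endoplasmic reticulum, at 0.17. Sox9, a transcription factor, and Axin2, a negative regulator of Wnt signalling, were at 0.21, and Usp11, a deubiquitinase, was at 0.22. Jph2 measured 4.13 and 5.07 TPM in Control, against 0.23 and 0.14 TPM in the CypD OE-labelled libraries, where few fragments lie behind it. The added 1 TPM shrinks the difference of a gene this low, so its first place holds for this scale only. Eogt measured 154 and 156 TPM in Control, against 32.0 and 32.4 TPM in the CypD OE-labelled libraries. Mitf ranked 133 by this measure, at 0.50, with a smaller change. The profiles share libraries and scaling, and likeness over 8 libraries is a description only.

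**Figure D4:**
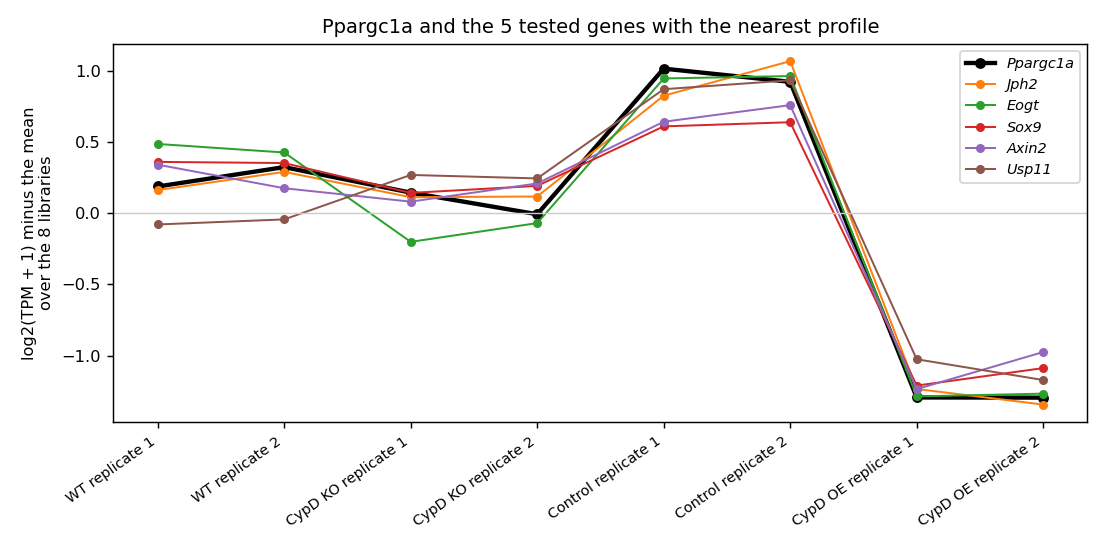
log2(TPM + 1) minus its mean over the 8 libraries (vertical axis) in each library (horizontal axis) for Ppargc1a (black) and the 5 tested genes with the nearest profile. All 6 lines are highest in Control and lowest in the CypD OE-labelled libraries, and at 21% oxygen they lie between these levels.

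The other nuclear genes of mitochondrial gene expression were taken from 5 lists with 127 genes, of which 122 were tested. In CypD KO against WT, 31 of them (25.4%) were lower and 11 (9.02%) were higher, where 18.4% of all genes tested were lower and 30.1% were higher. The median log2 difference was -0.05, against 0.09 for all genes tested. In the CypD OE-labelled libraries against Control, 32 (26.2%) were higher and 13 (10.7%) were lower, where 19.0% and 18.3% of all genes were, with a median of 0.12 against 0.002. In Control against WT, 7 (5.74%) were higher and 33 (27.0%) were lower, where 12.1% of all genes were in each direction, with a median of -0.16 against 0.01. The 13 lower genes of the second comparison became 7 with TPM over nuclear protein-coding genes, where the lower genes among all tested fell from 2481 to 1963. With 1 library left out, the lower genes numbered 20 to 30 in the first comparison (20 without either CypD KO library), 7 to 11 in the second (7 or 8 without Control replicate 1 or either CypD OE library) and 14 to 28 in the third (14 to 17 without any of its own libraries). Lower calls over all genes tested also fell without a library of the comparison, for example from 1635 to between 996 and 1083 in the third. The list counts describe the lists, which were not tested as sets.

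Replication, maintenance and nucleotide supply (21 genes tested) had 7 higher and 4 lower genes in CypD KO, 33.3% and 19.0% of the list, near the 30.1% and 18.4% of all genes. The higher genes included Primpol, the primase-polymerase (1.39, limma adjusted p = 9.38e-05), Dguok, which phosphorylates deoxyguanosine in mitochondria (0.89, 8.41e-05), Slc25a36, a pyrimidine nucleotide carrier (0.71, 0.00197), and Rrm2b, a ribonucleotide reductase subunit (0.66, 3.27e-04), in log2 difference and limma adjusted p. In the CypD OE-labelled libraries, 3 genes of this list were higher (14.3%) and 5 were lower (23.8%, and 3 without Control replicate 2 or CypD OE replicate 2), against 19.0% and 18.3% of all genes. Slc25a36 (-1.02, limma adjusted p = 6.13e-04) and Lonp1, the protease that degrades TFAM (-0.54, 1.64e-04), were lower, and Atad3a, a nucleoid-associated membrane protein (0.51, 0.00300), and Ssbp1, the single-stranded DNA-binding protein of the replisome (0.48, 5.55e-04), were higher. Of the 6 elongation and termination factors, 1 was lower and 0 were higher in CypD KO, against 18.4% and 30.1% of all genes. The lower gene was Mterf4 (-0.41, limma adjusted p = 0.0194), although the list median was 0.14, against 0.09 for all genes tested. In the CypD OE-labelled libraries 2 were higher and 0 were lower (1 with median-of-ratios scaling), against 19.0% and 18.3% of all genes. Mterf3, known as a repressor of mitochondrial transcription (0.57, limma adjusted p = 0.00683), and Tefm, the elongation factor (0.27, 0.0257), were higher in the CypD OE-labelled libraries.

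RNA processing, modification and decay (43 genes tested) had 11 lower (25.6%) and 0 higher genes in CypD KO, against 18.4% and 30.1% of all genes. The 11 were 7 without either CypD KO library and 16 with median-of-ratios scaling. That scaling raised the lower genes among all 13526 tested from 2486 to 3285. With the filter of 5 TPM, without either CypD OE library or with the 4 libraries of the comparison alone 1 gene was higher, and with eBayes without trend 3 were. In the CypD OE-labelled libraries, 15 genes of this list were higher (34.9%) and 4 were lower (9.30%), against 19.0% and 18.3% of all genes. The 15 and 4 were 19 and 1 with TPM over nuclear protein-coding genes, where all genes tested had 3506 higher and 1963 lower, in place of 2576 and 2481. With any 1 library of this comparison or of WT left out, the lower genes of the list numbered 1 or 2. Pnpt1, the polynucleotide phosphorylase of the mitochondrial degradosome (-0.74, limma adjusted p = 6.88e-05), Tbrg4, a FASTK family protein (-0.72, 7.39e-04), Noa1, a GTPase of ribosome assembly (-0.53, 1.29e-04), and Rpusd4, a pseudouridine synthase (-0.38, 0.0222), fell most in CypD KO. Gtpbp3, a tRNA-modifying enzyme (1.03, limma adjusted p = 0.00137), Trmt61b, an RNA methyltransferase (0.68, 0.0266), Fastkd3, of the FASTK family (0.53, 0.00970), and Ptcd3, a ribosomal pentatricopeptide protein (0.51, 1.07e-04), rose most in the CypD OE-labelled libraries. Translation factors and tRNA synthetases (35 tested) had 9 lower genes (25.7%) and 1 higher gene (2.86%) in CypD KO, against 18.4% and 30.1% of all genes. The 9 were 4 without WT replicate 1, 5 without any 1 of the other 3 libraries, 4 without a filter on low TPM, 6 with the replicate block and 14 with median-of-ratios scaling. In the CypD OE-labelled libraries, 7 genes were higher, a share close to the 19.0% of all genes, and 2 were lower (5.71%, against 18.3%). With TPM over nuclear protein-coding genes 11 were higher and 1 was lower. Without Control replicate 1, CypD OE replicate 2 or any 1 of the WT and CypD KO libraries, 1 was lower. Oxa1l, the inner membrane insertase (-0.64, limma adjusted p = 5.02e-04), Mtrf1, a release factor (-0.47, 0.0263), Qrsl1, a subunit of the glutamyl-tRNA amidotransferase (-0.46, 0.00803), and Tsfm, an elongation factor (-0.39, 0.0236), fell in CypD KO. In the CypD OE-labelled libraries, Guf1, a translational GTPase (0.70, limma adjusted p = 2.51e-04), and the cysteinyl-tRNA synthetase Cars2 (0.51, 0.00734) were higher, and the glutamyl-tRNA synthetase Ears2 (-0.46, 0.0351) was lower.

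The nuclear coactivators and transcription factors (17 of 21 genes tested) had 3 higher (17.6%) and 6 lower (35.3%) genes in CypD KO, against 30.1% and 18.4% of all genes. They had 5 higher (29.4%) and 2 lower (11.8%) in the CypD OE-labelled libraries, against 19.0% and 18.3% of all genes. In CypD KO, 1 was higher without WT replicate 1 or CypD KO replicate 1, and 9 were lower with median-of-ratios scaling. That scaling raised the lower genes among all 13526 tested from 2486 to 3285. Of the 2 lower in the CypD OE-labelled libraries, 1 was left without Control replicate 1 or either CypD OE library. Beside Myc and Ppargc1b, Ppard, a nuclear receptor (-0.50, limma adjusted p = 0.00317), and Tfeb, a regulator of lysosomal genes (-0.46, 0.00914), fell in CypD KO. Beside Mitf, Myc and Pprc1, Esrra, a nuclear receptor partner of PGC-1 (0.38, limma adjusted p = 0.0371), was called in the CypD OE-labelled libraries. Of the genes named from these lists, Ears2 lost its call in 11 of 15 alternative settings, Esrra in 8 of 16, Trmt61b in 5, Mtrf1 and Tefm in 4, Mterf4 and Tsfm in 3, Rpusd4 in 2 and Fastkd3 and Tfeb in 1. With 1 library left out, these losses came without WT replicate 2 or CypD KO replicate 2 for Mterf4, without WT replicate 1 or CypD KO replicate 2 for Tsfm and Rpusd4, without either WT library or CypD KO replicate 1 for Mtrf1, and without CypD KO replicate 1 for Tfeb. They came in the CypD OE-labelled libraries without Control replicate 1 or either CypD OE library for Tefm, without CypD OE replicate 1 for Fastkd3, without any 1 of the 4 libraries compared for Trmt61b, without Control replicate 1, CypD OE replicate 2 or any WT or CypD KO library for Esrra, and without any library but CypD OE replicate 1 for Ears2.

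**Figure D5:**
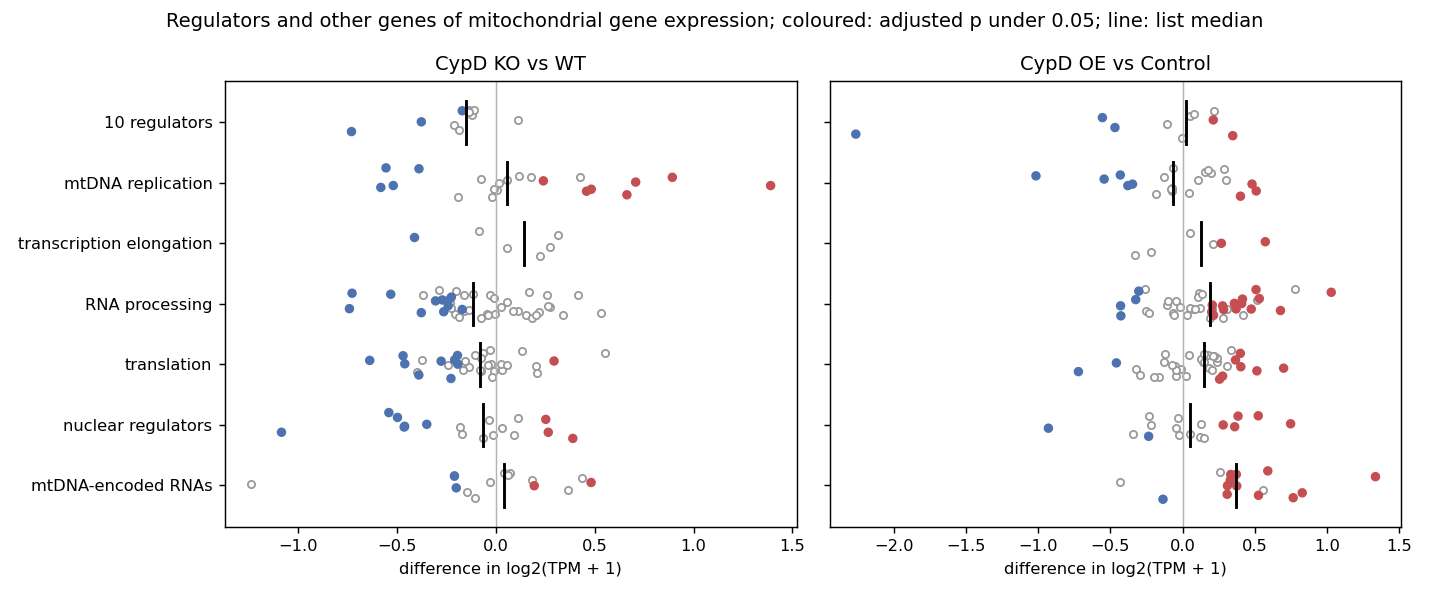
Difference in log2(TPM + 1) (horizontal axis) for each tested gene of the 10 regulators, the 5 other nuclear lists and the 15 mitochondrially encoded RNAs (rows), for CypD KO against WT (left) and the CypD OE-labelled libraries against Control (right). Filled points are genes with a limma adjusted p under 0.05, blue where lower and red where higher, and the black line is the list median, which for RNA processing lies at -0.12 on the left and 0.19 on the right.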

How the data were processed

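RNA-seq was made from 8 libraries of B16F10 cells, 2 each of WT, CypD KO, Control and CypD OE, grouped by their labels. The authors depleted ribosomal RNA, sequenced paired-end reads of 150 bases, trimmed them with Cutadapt 3.4, used STAR 2.7.8a for alignment to GRCm39, and obtained expression estimates from RSEM 1.3.1. Deposited were TPM values with the same sum in every library, so that abundant transcripts lower all other values. The authors ran their own tests on counts with DESeq2 1.26.0. Counts were not used here.

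Values were moved to the log2(TPM + 1) scale. Fits were made with limma 3.58.1 (R 4.3.3, lmFit, eBayes with trend), with 1 mean per group over all 8 libraries, for the 13526 genes at or above 1 TPM in at least 2 libraries. Tests were two-sided, adjusted by the Benjamini-Hochberg procedure over all genes tested. The fold change on this scale understates that of low genes. The test was also run on simulated data that kept no link between level and spread and changed only a small set of genes. That run does not measure the error rate of the test in these data. With 2 libraries per group, an exact permutation test cannot give a p below 0.333 and was not used. Depth was estimated from the spacing of low TPM values, of which 83.8% to 86.7% lay within 0.15 of whole fragments, where even spacing would give 30%. Gene positions are from GENCODE release M39, which held 54749 (98.8%) of the gene identifiers.

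The members and gene lists were chosen with earlier results of these data known. All 10 members are named in every comparison. From each other list, up to 4 genes (3 of the mitochondrially encoded) with the largest absolute called difference are named in CypD KO against WT and in CypD OE against Control, and for the member with the widest range the 5 genes with the nearest profile. 1 gene that this rule selects is not reported here. The other PGC-1 family genes are named in all groups, and overlapping genes and markers were named by position or list. After their values were seen, mt-Atp6 was named in both comparisons and mt-Atp8 in CypD OE against Control. Alternatives were a pseudocount of 0.1, no filter or a filter of 5 TPM, median-of-ratios scaling, TPM over nuclear protein-coding genes, eBayes without trend, a replicate block, each library left out, and the 4 libraries of a comparison alone.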

Additional observations from a re-analysis of the deposited data

How the results depend on the processing

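Of 960 differences of single members under alternatives (10 members, 6 comparisons, 16 settings), 906 stayed on their side of the threshold, 36 lost it, 18 gained it and 0 turned direction where called. The calls of Ppargc1a and Polg in the CypD OE-labelled libraries against Control, of Lrpprc in CypD KO against WT, and of Ppargc1a and Lrpprc in Control against WT were made in all 16. With median-of-ratios scaling, 5 members were lower in CypD KO than in WT, in place of 3. Of all 13526 genes tested, 3285 were lower with this scaling, in place of 2486. Leaving out each library in turn gave 1 to 3 lower members in CypD KO (1 without WT replicate 1 and without CypD KO replicate 1). It gave 1 to 2 higher and 1 to 3 lower members in the CypD OE-labelled libraries against Control, with 1 higher without Control replicate 2 or either CypD OE library and 1 lower without Control replicate 1 or CypD OE replicate 2. It gave 1 to 2 called members in CypD KO against Control (1 without CypD KO replicate 1 or Control replicate 1) and 2 to 5 in CypD KO against CypD OE (2 without replicate 2 of either group). Of the other pathway genes, 20 to 30 were lower in CypD KO against WT with each library left out (31 with all, and 20 without either CypD KO library), 7 to 11 were lower in the CypD OE-labelled libraries against Control (13 with all), and 4 to 7 were higher and 14 to 28 lower in Control against WT (7 and 33 with all, 14 to 17 lower without any 1 of its own 4 libraries). The 13 lower genes in the CypD OE-labelled libraries against Control were 8 without a filter on low TPM, 7 with TPM over nuclear protein-coding genes and 8 with the replicate block. Over all genes tested, lower calls also fell when a library of the comparison was left out. They numbered 1944 to 2026 in CypD KO against WT (2486 with all libraries). In the CypD OE-labelled libraries against Control they numbered 1777 to 1955 (2481 with all), and in Control against WT 996 to 1083 (1635 with all). The cause of these changes was not tested. The labels give replicate numbers but do not pair the libraries, and deviations of same-numbered libraries correlated at 0.11 for CypD KO and WT and at 0.00 for CypD OE and Control. With the replicate block, 3 members were lower in CypD KO, 2 were higher and 2 lower in the CypD OE-labelled libraries, and Slirp in the latter was no longer called (limma adjusted p = 0.0643). Between the scalings, the median difference of the 13 mitochondrially encoded mRNAs in CypD KO against WT moved from 0.04 to -0.05, and that of replication genes in CypD OE against Control from -0.07 to 0.01.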

Other observations

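The RNAs that the regulators act on were also measured. Of the 13 mitochondrially encoded mRNAs, 10 were higher and 1 was lower in the CypD OE-labelled libraries than in Control, with a median log2 difference of 0.37, where 19.0% of all genes tested were higher and 18.3% were lower. With TPM over nuclear protein-coding genes 10 were higher and 0 were lower. mt-Cytb, the cytochrome b mRNA of complex III, measured 8670 and 8109 TPM in Control, against 14414 and 15380 TPM in the CypD OE-labelled libraries (log2 difference 0.83, limma adjusted p = 4.01e-05). mt-Nd1, a complex I subunit mRNA, measured 5815 and 5430 TPM in Control, against 9234 and 9886 TPM in the CypD OE-labelled libraries (0.77, limma adjusted p = 4.55e-05). mt-Co1, a complex IV subunit mRNA, measured 13474 and 13124 TPM in Control, against 11857 and 12345 TPM in the CypD OE-labelled libraries (-0.14, limma adjusted p = 0.00808), and it was not called over nuclear protein-coding genes (-0.05, limma adjusted p = 0.230), without a filter on low TPM or without the trend in eBayes. It is named after its values were seen, as the 1 gene that was lower. mt-Rnr2, a ribosomal RNA, was also higher (1.34, limma adjusted p = 3.70e-04), but ribosomal RNA was depleted from these libraries, so its level depends on the depletion.

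In CypD KO against WT, 2 of the 13 mRNAs were higher (15.4%) and 2 were lower (15.4%), where 30.1% and 18.4% of all genes tested were. Without WT replicate 2, 1 was lower, and without a filter on low TPM, 0 were. mt-Co2 measured 5102 and 4938 TPM in WT, against 6459 and 7617 TPM in CypD KO (log2 difference 0.48, limma adjusted p = 0.00531). mt-Atp8 measured 48048 and 46905 TPM in WT, against 41211 and 40996 TPM in CypD KO (-0.21, limma adjusted p = 3.37e-04), and mt-Nd1 had a log2 difference of -0.20 (limma adjusted p = 0.00985). The other Atp gene among the 13, mt-Atp6, had the opposite sign at a far lower level. Its means were 3144 TPM in WT and 3579 TPM in CypD KO (0.18, limma adjusted p = 0.102). How far transcript length shapes the mt-Atp8 values was not tested. The call of mt-Atp8 was lost without a filter on low TPM, and that of mt-Nd1 in 3 of 16 alternative settings. In Control against WT, 1 mRNA was higher and 7 were lower, where 12.1% of all genes tested were in each direction. The 7 were 4 without WT replicate 1, 3 without WT replicate 2, Control replicate 2 or the trend in eBayes, and 2 without a filter on low TPM. How these levels relate to those of the regulators was not tested.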
